A study of Sus scrofa with 9 samples.

Results

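The genes described here are 10 genes of the inflammatory response of connective tissue cells: the chemokines AMCF-II, CCL2 and CXCL12, the cytokine IL6, the adhesion molecules VCAM1 and ICAM1, the complement protein C3, the secreted pattern recognition protein PTX3, and NFKBIA and TNFAIP3, which shut off NF-kB. They were taken by symbol from 30477 gene IDs, of which 14864 had a symbol, and each matched 1 ID. The genes were chosen by their role with the FPKM of these same libraries known: AMCF-II and CCL2 were selected on their rise over 0 h, among the largest in the data, and the 72 h libraries were known to differ in these genes. Comparisons of the 10 genes with 0 h are therefore descriptions and carry no test. Their 48 h and 72 h values were known as well, so p-values given for 72 h against 48 h are descriptions too.

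RNA was sequenced from porcine embryonic fibroblasts (PEF), connective tissue cells of pig embryos grown in culture, before insulin (0 h, untreated control) and 48 h and 72 h after insulin was added. Each time has 3 libraries, numbered as replicates with nothing to say whether they came from separate cultures or embryos, so p-values measure only the spread between these libraries. No genetic change of the cells is stated, and no label gives the insulin concentration or the number of embryos. No untreated culture of 48 h or 72 h was analysed here, so insulin and time in culture cannot be told apart in any comparison with 0 h.

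NF-kB is a family of transcription factors held in the cytoplasm by inhibitor proteins until a signal, such as a bacterial product or an inflammatory cytokine, leads to the destruction of the inhibitor. The factors then enter the nucleus and switch on chemokines, which draw white blood cells, adhesion molecules, which hold those cells, and inhibitors of NF-kB itself, which end the response. Fibroblasts respond in this way and are a known source of CCL2 and IL6 in tissue.

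Values are FPKM, in which fragments are scaled by gene length and library size, so that levels can be compared between genes. Differences between times are given as differences in log2(FPKM + 1) with their standard error (SE) from a limma fit of all 9 libraries, a scale that understates the change of genes near or below 1 FPKM. Library sums of FPKM ran from 487858 to 497665 at 0 h, 524992 to 563656 at 48 h and 505022 to 525471 at 72 h. All libraries after insulin thus had larger sums than all those at 0 h. Scaling to equal FPKM sums shifted the median log2 difference from 0 h by -0.13 at 48 h and -0.05 at 72 h. The number of reads is unknown, but the most frequent ratio between low values put 48 h replicate 3 at a relative depth of 1.28 and the other libraries at 0.936 to 1.02, with 0 h replicate 1 set to 1 and 17 to 24 genes behind each estimate. All 11 matched fibroblast markers passed the filter on low values, and their summed FPKM was 21734 to 22665 before insulin, 20053 to 21105 after 48 h and 22460 to 22844 after 72 h. Of 12 markers of macrophages and other leukocytes 9 stayed below 1 FPKM in every library, and PTPRC, the general leukocyte gene, CD163 and CD3E were listed at 0 in all 9 libraries. The 12 markers summed to 12.8 to 16.3 FPKM before insulin, 34.4 to 38.2 after 48 h and 20.1 to 48.0 after 72 h, and most of that was CD79A, a B cell gene, at 9.77 to 12.9, 29.3 to 31.5 and 15.9 to 42.1 FPKM. The 8 endothelial markers summed to 6.66 to 6.88, 2.68 to 2.87 and 2.14 to 3.46 FPKM, with CDH5 listed at 0 throughout, and the 6 epithelial markers to 8.05 to 9.37, 14.2 to 14.9 and 10.9 to 12.2 FPKM. The part of such cells in the results was not tested. In bulk RNA, more cells of a type and more RNA per cell cannot be told apart.

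Of the 10 genes, 9 passed the filter, which asked for 1 FPKM or more in 3 or more libraries and which 11063 genes passed in all. Of these 9, the 48 h libraries lay wholly above the 0 h libraries in 8 and overlapped them in PTX3. At 72 h 8 genes lay wholly above 0 h and PTX3 wholly below. Among all tested genes 32.4% lay wholly above 0 h at 48 h and 27.6% wholly below, and 28.1% and 30.4% at 72 h. Counts of groups without overlap, here and below, use FPKM as listed, whose sums were lowest at 0 h. Narrow gaps such as that of IL6 at 48 h may depend on this, and no count was made at equal FPKM sums. By the limma test 49.9% of all tested genes were called at 48 h and 45.5% at 72 h, in either direction. The choice of the genes used these comparisons, so their counts are given as they are. VCAM1, C3 and TNFAIP3 were below 1 FPKM in every 0 h library and passed the filter only through libraries after insulin. Their place among the genes above 0 h was therefore partly set by the filter.

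**Figure D1:**
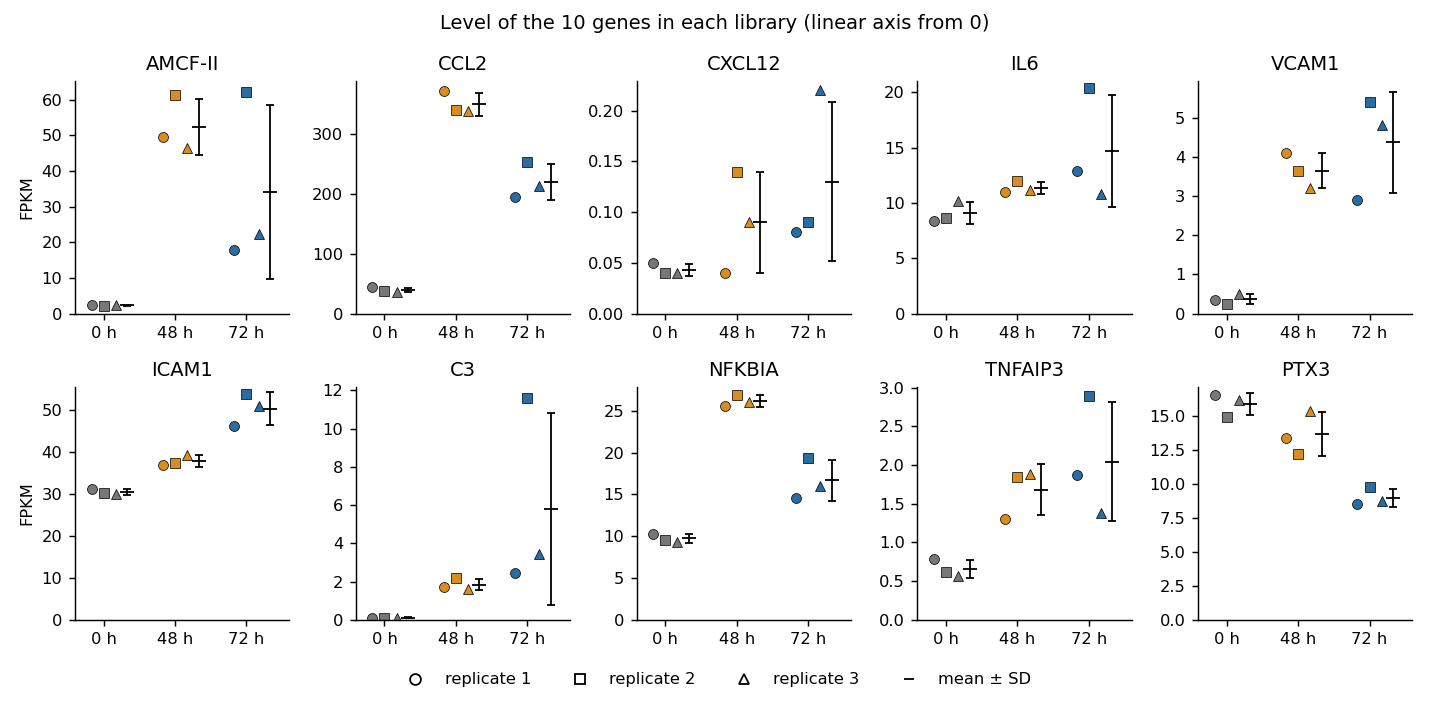
FPKM of the 10 genes in each of the 9 libraries, on linear axes from 0 that differ between genes, with the mean ± SD of the 3 libraries of each time beside the points. AMCF-II, CCL2 and NFKBIA were highest on average at 48 h, C3, ICAM1 and VCAM1 at 72 h, and PTX3 at 0 h, and 72 h replicate 2 (square) was the highest 72 h library in every gene but CXCL12.

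AMCF-II, alveolar macrophage chemotactic factor II, is a porcine chemokine of the CXC type that attracts neutrophils, and the RefSeq table gives CXCL6 as its synonym. Its level was 2.56, 2.27 and 2.36 FPKM in the 0 h libraries, 49.6, 61.4 and 46.5 at 48 h, and 18.0, 62.3 and 22.3 at 72 h. All libraries after insulin lay far above all those at 0 h, but 72 h replicate 2 was at the level of 48 h while the other 72 h libraries were at less than 1 in 2 of it. The mean at 48 h was 21.9 times that at 0 h (a difference of 3.97 ± 0.34 on the log2 scale), and at 72 h 14.3 times (3.16 ± 0.34). Between 72 h and 48 h the difference was -0.81 ± 0.34, with overlapping groups, and it was -1.34 without 72 h replicate 2 and -0.47 without 72 h replicate 1. Among the 11063 tested genes ranked by mean level, AMCF-II moved from place 9508 at 0 h to 1482 at 48 h and 2177 at 72 h.

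AMCF-II (ENSSSCG00000008957) lies on chromosome 8 at 70008225 to 70010360 (Sscrofa11.1), in a row of CXC chemokine genes. The protein-coding gene before it is CXCL8, 72.4 kb away, which also attracts neutrophils, and after it come PPBP, the unnamed loci LOC100520680 and LOC100525396, and CXCL2 at 146.9 kb. CXCL8 was at 3.34 ± 0.514 FPKM at 0 h (mean ± SD, n = 3), 12.6 ± 1.13 at 48 h and 7.59 ± 2.64 at 72 h, and CXCL2 at 4.98 ± 0.289, 12.6 ± 0.161 and 11.3 ± 2.28. PPBP stayed at 0 to 0.160 FPKM on average. At 0 h CXCL2 and CXCL8 thus had higher levels than AMCF-II, and at 48 h AMCF-II was the highest of the 3. Whether reads of AMCF-II are shared with the unnamed loci was not tested.

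CCL2, also called MCP-1, attracts monocytes and is a classical NF-kB target. Its level was 44.1, 37.5 and 36.8 FPKM at 0 h, 371, 339 and 337 at 48 h, and 195, 253 and 213 at 72 h. The groups did not overlap, with 48 h highest, 72 h between and 0 h lowest. The mean at 48 h was 8.85 times that at 0 h (3.12 ± 0.10 on the log2 scale), at 72 h 5.58 times (2.45 ± 0.10), and the step from 48 h to 72 h was -0.67 ± 0.10. By mean level CCL2 went from place 1821 among the tested genes before insulin to 205 after 48 h and 310 after 72 h, each time above the other 8 genes that passed the filter. CCL2 (ENSSSCG00000017723) lies on chromosome 12 at 40798109 to 40800013, beside the chemokine genes CCL11 (15.2 kb), CCL8 (56.1 kb) and CCL1 (66.7 kb). CCL1 was listed at 0 in every library and CCL8 at 0.0333 FPKM on average at 72 h and at 0 before. CCL11, which attracts eosinophils, did not pass the filter and was at 0, 0.11 and 0.11 FPKM at 0 h, 0.32, 0.97 and 0.33 at 48 h and 1.07, 1.59 and 0.84 at 72 h.

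CXCL12, also called SDF-1, keeps blood stem cells in bone marrow and is a marker of many stromal fibroblasts. The gene (ENSSSCG00000034973) lies on chromosome 14 at 91516383 to 91543857. Here it was between 0.04 and 0.22 FPKM in all 9 libraries and did not pass the filter. With values of 0.05, 0.04 and 0.04 at 0 h, 0.04, 0.14 and 0.09 at 48 h, and 0.08, 0.09 and 0.22 at 72 h, each was too near the last printed decimal to support a fold change. ACKR3, a scavenger receptor for CXCL12, was the only 1 of 17 matched chemokine receptor genes that passed the filter. It rose from 42.6 ± 2.05 FPKM at 0 h to 63.1 ± 7.45 at 48 h (0.55 ± 0.13, limma adjusted p = 0.00612) and 83.1 ± 18.4 at 72 h (0.93 ± 0.13, adjusted p = 2.17e-04). CXCR4, the signalling receptor of CXCL12, stayed at or below 0.96 FPKM in every library.

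IL6 (ENSSSCG00000020970, chromosome 9 at 91506421 to 91510830) is the cytokine that drives the acute phase response of the liver. Its level was 8.33, 8.66 and 10.2 FPKM at 0 h, 10.96, 11.9 and 11.2 at 48 h, and 12.9, 20.4 and 10.8 at 72 h. The libraries after insulin lay above those at 0 h, by a narrow margin except for 72 h replicate 2, and the 48 h and 72 h groups overlapped. The difference from 0 h was 0.30 ± 0.17 at 48 h (0.18 at equal FPKM sums) and 0.60 ± 0.17 at 72 h, or 0.35 without 72 h replicate 2. The difference of 72 h from 48 h did not pass the test (0.30 ± 0.17, limma adjusted p = 0.226) and was 0.05 without that library. IL6ST, the receptor chain through which IL6 and its relatives signal, was at 28.3 ± 1.25 FPKM at 0 h and 37.4 ± 3.51 at 72 h (0.39 ± 0.10, limma adjusted p = 0.0111), while IL6R, the chain that binds IL6, was below 1 FPKM in every library.

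VCAM1 (ENSSSCG00000006862, chromosome 4 at 117496914 to 117511211) holds lymphocytes and monocytes through the integrin ITGA4 with ITGB1. It was nearly silent at 0 h, with 0.36, 0.24 and 0.51 FPKM, and was at 4.11, 3.63 and 3.21 at 48 h and 2.91, 5.39 and 4.80 at 72 h. All libraries after insulin lay above those at 0 h, and the 48 h and 72 h groups overlapped. The means were 9.86 and 11.8 times that at 0 h, while the log2 differences were 1.76 ± 0.17 and 1.94 ± 0.17 and grew to 3.03 and 3.24 with a pseudocount of 0.1. The difference of 72 h from 48 h did not pass the test (0.18 ± 0.17, limma adjusted p = 0.445) and was 0.04 without 72 h replicate 2.

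ICAM1 (ENSSSCG00000013655, chromosome 2 at 69097136 to 69107722), a ligand of the leukocyte integrins, was well expressed from the start, with 31.3, 30.2 and 30.0 FPKM at 0 h, 36.9, 37.3 and 39.4 at 48 h, and 46.2, 53.9 and 51.0 at 72 h. The groups did not overlap and climbed with time, and ICAM1 and C3 were the only members to be wholly higher at 72 h than at 48 h. The difference from 0 h was 0.30 ± 0.06 at 48 h (0.17 at equal FPKM sums) and 0.70 ± 0.06 at 72 h. ICAM1 rose from 48 h to 72 h by 0.40 ± 0.06 (limma adjusted p = 0.00169).

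C3 (ENSSSCG00000013551, chromosome 2 at 72431470 to 72471622) is the central protein of complement, the cascade of blood and tissue proteins that marks microbes for removal. It was almost absent at 0 h, with 0.11, 0.09 and 0.12 FPKM, and was at 1.70, 2.17 and 1.62 at 48 h and 2.44, 11.6 and 3.42 at 72 h. The groups did not overlap, and 72 h replicate 2 was at more than 3 times each other 72 h library. The mean was 17.2 times that at 0 h at 48 h and 54.5 times at 72 h, on a 0 h level of which 0.01 FPKM is the last printed decimal. On the log2 scale the differences were 1.35 ± 0.36 and 2.38 ± 0.36, or 3.22 and 4.51 with a pseudocount of 0.1. The step from 48 h to 72 h did not pass the test (1.03 ± 0.36, limma adjusted p = 0.0581). It was smaller but passed without 72 h replicate 2 (0.47, adjusted p = 0.0306), larger and passing without 72 h replicate 1 (1.40, adjusted p = 0.0204), and 0.56 with library weights.

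PTX3 (ENSSSCG00000011727, chromosome 13 at 97273594 to 97279570), a long pentraxin that binds microbes and is secreted by fibroblasts in inflammation, went the other way. It was at 16.5, 14.9 and 16.2 FPKM at 0 h, 13.4, 12.2 and 15.4 at 48 h, and 8.49, 9.73 and 8.70 at 72 h. The 48 h libraries overlapped those at 0 h and the 72 h libraries lay below both. The mean at 72 h was 0.566 times that at 0 h (-0.76 ± 0.09), and the difference at 48 h was -0.21 ± 0.09, with a range of -0.35 to -0.13 over the settings tried. PTX3 fell from 48 h to 72 h by 0.55 on the log2 scale (SE 0.09, limma adjusted p = 0.00155). TNFAIP6, which binds PTX3 in the hyaluronan matrix, was at 0.853 ± 0.182 FPKM at 0 h and rose at 72 h to 2.32 ± 0.670 (0.82 ± 0.16, adjusted p = 0.00154).

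NFKBIA (ENSSSCG00000001952, chromosome 7 at 64508119 to 64510754) encodes IkB-alpha, the inhibitor that holds NF-kB in the cytoplasm and is itself among the first NF-kB targets. Its level was 10.3, 9.60 and 9.32 FPKM at 0 h, 25.5, 27.0 and 26.0 at 48 h, and 14.5, 19.4 and 16.1 at 72 h. The order was that of CCL2, with 48 h highest and no overlap between groups. The mean was 2.69 times that at 0 h at 48 h (1.34 ± 0.09) and 1.71 times at 72 h (0.71 ± 0.09). NFKBIA fell from 48 h to 72 h by 0.63 on the log2 scale (SE 0.09, limma adjusted p = 9.39e-04).

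TNFAIP3 (ENSSSCG00000004154, chromosome 1 at 26474158 to 26489771) encodes A20, an enzyme that edits ubiquitin chains and so stops signalling to NF-kB. It was at 0.78, 0.62 and 0.56 FPKM at 0 h, 1.30, 1.85 and 1.89 at 48 h, and 1.87, 2.89 and 1.38 at 72 h. The libraries after insulin lay above those at 0 h, and the 48 h and 72 h groups overlapped. The means were 2.57 and 3.13 times that at 0 h (0.69 ± 0.16 and 0.85 ± 0.16 on the log2 scale, or 1.23 and 1.46 with a pseudocount of 0.1). From 48 h to 72 h the difference did not pass the test (0.16 ± 0.16, limma adjusted p = 0.489), and it turned to -0.03 without 72 h replicate 2.

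**Figure D2:**
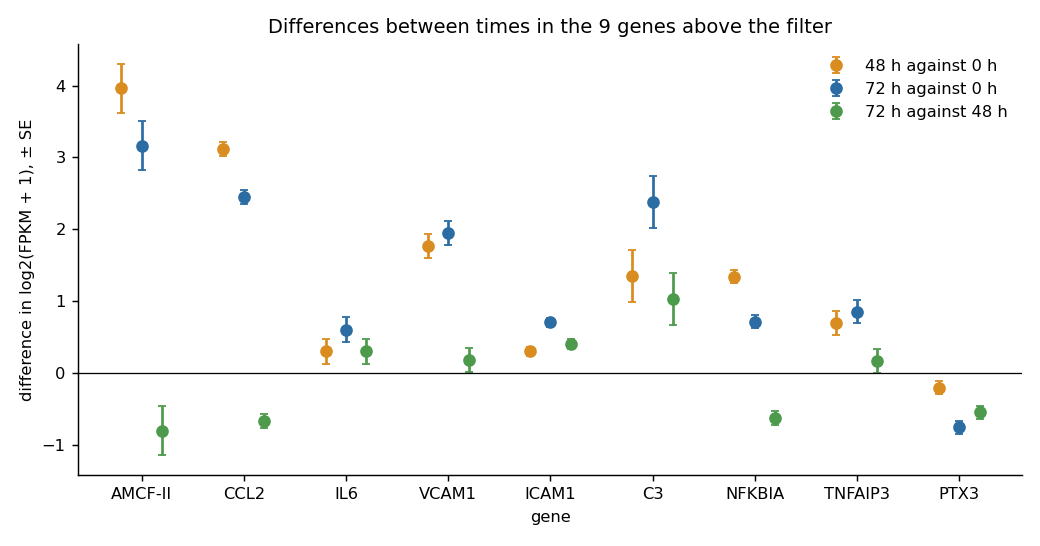
Differences in log2(FPKM + 1) between times (points) with their SE from the limma fit (bars) for the 9 genes that passed the filter. AMCF-II (-0.81), CCL2 (-0.67), NFKBIA (-0.63) and PTX3 (-0.55) lay below 0 for 72 h against 48 h, and the other 5 genes lay above it.

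For 72 h against 48 h a test was given for 7 genes, AMCF-II and CCL2 being left out because they were listed for their rises. The values of the 7 were also known when the genes were chosen. The p-values and the counts below are therefore descriptions. ICAM1 rose, NFKBIA and PTX3 fell, and IL6, VCAM1, C3 and TNFAIP3 did not pass. That is 3 of 7, where 25.4% of all tested genes were called in this comparison. With AMCF-II and CCL2 included, the 72 h libraries lay wholly above those of 48 h in 2 of the 9 genes. They lay wholly below in 3, CCL2 among them. The shares of all tested genes were 14.9% and 23.9%. The comparisons with 0 h share the 0 h libraries, and this one shares libraries with both.

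The 72 h libraries differed among themselves in these genes. In all 9 genes that passed the filter, 72 h replicate 2 was the highest of the 3, as it was in 36.8% of all tested genes. The gap was largest in C3, where replicate 2 was at 3.96 times the mean of the other 72 h libraries, and in AMCF-II, at 3.09 times. It was 1.78 times in TNFAIP3, 1.72 in IL6 and 1.40 in VCAM1, and between 1.11 and 1.27 times in ICAM1, PTX3, CCL2 and NFKBIA. On the log2(FPKM + 1) scale C3, AMCF-II, IL6 and TNFAIP3 were over 0.5 higher in replicate 2 than in the others (1.69, 1.59, 0.74 and 0.57), as were 176 of all 11063 genes (1.59%). Among all tested genes with a symbol only SCARNA12, COX6B2 and CHI3L1, a secreted glycoprotein of inflamed tissue, had a larger gap than C3 and AMCF-II. CHI3L1 was at 5.18, 24.3 and 7.09 FPKM in the 72 h libraries. These genes were picked out after their values were seen, and the difference between single libraries has no replicate behind it. The summed leukocyte markers, mostly CD79A, were at 45.8, 48.0 and 20.1 FPKM in 72 h replicates 1, 2 and 3. These sums were close to each other in replicates 1 and 2 and lower in replicate 3.

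**Figure D3:**
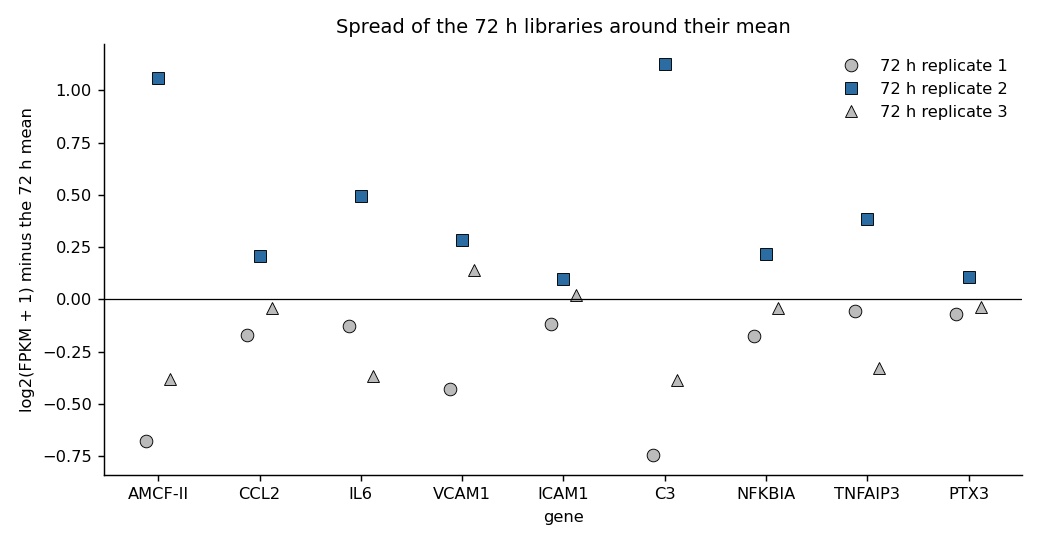
Log2(FPKM + 1) of each 72 h library minus the mean of the 3 72 h libraries, for the 9 genes that passed the filter. The square, 72 h replicate 2, is the highest in all 9, most of all in C3 and AMCF-II.

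The other genes of the response were taken from 9 lists of 226 symbols, of which 188 matched an ID and 113 passed the filter. The lists were written with earlier results of these data known, and some list genes were already known to rise. Their counts and p-values against 0 h are therefore descriptions, partly set by the choice of genes. The filter partly set them too, since a gene below 1 FPKM at 0 h passed only through libraries after insulin. At 48 h 52 of the 113 rose and 19 fell, with a median difference of 0.22, where 27.6% of all tested genes rose and 22.4% fell and the median was 0.02. At 72 h 45 rose and 17 fell, with a median of 0.21, where 23% of all tested genes rose and 22.5% fell and the median was -0.01. From 48 h to 72 h 16 rose and 16 fell (20 and 11 at equal FPKM sums), with a median of -0.01, where 9.17% of all tested genes rose and 16.3% fell.

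Of the chemokine ligands beside AMCF-II, CCL2 and CXCL12, 5 of 20 matched genes passed the filter. CCL19, below 1 FPKM in 0 h replicate 3, needed a library after insulin to pass, so the filter partly set the counts of rises. All 5 rose at 48 h and 3 of them were called higher at 72 h, with medians of 1.19 and 0.95, but only 3 rose at 48 h without 48 h replicate 2, and 4 at equal FPKM sums. CCL19, which guides dendritic cells and T cells, was at 1.07, 1.30 and 0.67 FPKM at 0 h, 6.80, 5.06 and 5.57 at 48 h and 4.72, 8.71 and 6.57 at 72 h (1.76 ± 0.18 and 1.91 ± 0.18, limma adjusted p = 3.75e-05 and 1.22e-05). CXCL8 rose by 1.65 ± 0.17 at 48 h, stayed above 0 h at 72 h (0.95 ± 0.17) and fell between them by 0.70 on the log2 scale (adjusted p = 0.0161), a call lost without 72 h replicate 1 or 3 and with no filter on low values, with adjusted p up to 0.0605. CXCL2 rose by 1.19 ± 0.11 and 1.02 ± 0.11. CXCL14 (0.22) and CCL5 (0.29) did not pass at 72 h.

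Among 10 cytokine genes that passed the filter 4 rose at 48 h, and 4 rose and 2 fell at 72 h, with medians of 0.36 and 0.12. The 72 h median was 0.05 without 72 h replicate 2 and 0.19 without 72 h replicate 1, and 1 gene fell at 72 h without 0 h replicate 2 or 3 or 72 h replicate 1. IL33, an alarmin stored in the nucleus of stromal cells, rose from 0.533 ± 0.0503 to 3.87 ± 0.115 FPKM at 48 h (1.67 ± 0.08) and further to 5.29 ± 0.472 at 72 h (2.03 ± 0.08). IL34, a growth factor of macrophages, rose from 2.56 ± 0.948 to 6.59 ± 0.832 and 8.55 ± 0.462 FPKM. IL1A, an inducer of NF-kB, was at 2.03 ± 0.841, 1.93 ± 0.419 and 1.53 ± 0.739 FPKM and did not pass in any comparison. TNF and IL1B, the best known inducers, had no ID under their symbols and are not analysed here. LIF, an IL6 relative, was higher at 48 h than at 72 h (-0.43 ± 0.13, limma adjusted p = 0.0313), a call lost at equal FPKM sums and in 7 other settings. CLCF1, a cytokine of the same family, fell by 0.38 on the log2 scale at 72 h (adjusted p = 0.00107), and IL7 by 0.31 (adjusted p = 0.0263), the latter lost in 5 settings.

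Among 18 receptor genes for cytokines and bacterial products 9 rose and 3 fell at each time, with medians of 0.30 and 0.32. IL13RA1, a receptor chain for IL4 and IL13, rose from 13.8 ± 0.883 to 24.9 ± 2.54 and 39.4 ± 5.02 FPKM (0.80 ± 0.10 and 1.44 ± 0.10), and OSMR, the receptor for oncostatin M, from 9.21 ± 0.341 to 14.3 ± 2.04 and 19.2 ± 0.643. CD14, a coreceptor for bacterial lipopolysaccharide that is also a monocyte marker, rose from 1.83 ± 0.295 to 4.03 ± 0.794 FPKM at 48 h (0.82 ± 0.14). At 72 h CD14 was at 4.05 ± 0.710 FPKM (0.83 ± 0.14 over 0 h). Of the 18 receptor genes, 5 fell at 72 h without 48 h replicate 3, and their 48 h median was 0.17 at equal FPKM sums. IL1RL1, the receptor of IL33, fell from 13.1 ± 0.875 to 4.96 ± 0.454 FPKM at 48 h (-1.24 ± 0.13) and 3.79 ± 0.906 at 72 h (-1.57 ± 0.13), so that ligand and receptor moved in opposite directions. IL1RAP, the chain that IL1 and IL33 receptors share, fell by 0.51 and 0.75 on the log2 scale. IL1R1, the receptor that binds IL1 itself, did not pass at 48 h (-0.01, limma adjusted p = 0.953) or 72 h (-0.19, adjusted p = 0.0565). LIFR fell at 48 h (-0.54 ± 0.12) and TNFRSF12A at 72 h (-0.31 ± 0.07).

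Among 26 genes of the NF-kB subunits and the proteins that signal to them, 8 rose and 6 fell at 48 h and 6 rose and 5 fell at 72 h, with medians of 0.09 and 0.01. At equal FPKM sums both medians turned negative (-0.04 and -0.04) and 8 rose and 8 fell at 48 h, while with library weights 13 rose and 9 fell. Without 72 h replicate 1 the 72 h median was -0.03 and 3 genes fell. RELB, the subunit of the slower, noncanonical arm, had 3.43, 3.33 and 3.91 FPKM at 0 h, 15.2, 12.5 and 12.5 at 48 h and 10.6, 13.2 and 9.63 at 72 h (1.66 ± 0.11 and 1.41 ± 0.11, limma adjusted p = 2.9e-06 and 3.25e-06). Its partner NFKB2 rose by 0.53 ± 0.09 at 48 h and 0.33 ± 0.09 at 72 h. RELA, a canonical subunit and the most abundant of the 5 subunits at 55.5 ± 0.570 FPKM at 0 h, rose by 0.30 ± 0.06 at 48 h and was not called at 72 h (0.13, adjusted p = 0.0841), and NFKB1 rose by 0.38 ± 0.08 and 0.25 ± 0.08. The 72 h call of NFKB1 was lost in 5 settings, among them without 72 h replicate 2. REL fell at 48 h by 0.26 on the log2 scale (adjusted p = 0.0314), a call that leaving out single libraries ended in 5 cases. Among the genes that fell at both times were CHUK, the kinase IKK-alpha (-0.66 ± 0.15 and -0.60 ± 0.15), and the adaptor TRAF5 (-0.71 ± 0.10 and -0.45 ± 0.10). MALT1, a protease of lymphocyte signalling, also fell at both (-0.53 ± 0.11 and -0.52 ± 0.11). MAP3K8, a kinase downstream of Toll receptors, rose at 72 h by 0.61 ± 0.13.

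Of 18 genes that restrain NF-kB, beside NFKBIA and TNFAIP3, 8 rose and 5 fell at 48 h and 6 rose and 2 fell at 72 h, with medians of 0.16 and 0.19. The 48 h median was 0.05 at equal FPKM sums, the 72 h median was 0.12 without 72 h replicate 2, and 3 fell at 48 h without 0 h replicate 1. BCL3, a nuclear relative of the IkB proteins, rose by 1.10 ± 0.11 and 0.91 ± 0.11. NFKBIZ, another nuclear IkB that promotes a second set of targets such as LCN2, did not pass at 48 h and rose at 72 h, with 11.4, 11.6 and 12.4 FPKM at 0 h, 11.07, 10.6 and 11.4 at 48 h and 23.5, 23.3 and 26.4 at 72 h (1.08 ± 0.07 over 48 h, limma adjusted p = 6.8e-06). ZFP36, which destroys cytokine messenger RNA, fell at 48 h (-0.25 ± 0.09) and rose at 72 h (0.39 ± 0.09). The deubiquitinases CYLD, OTULIN and OTUD7B fell at 48 h by 0.41, 0.44 and 0.41. OTULIN and OTUD7B were also lower at 72 h (-0.44 and -0.35), and CYLD was not called there (-0.22). TOLLIP, an adaptor that dampens Toll signalling, rose by 0.79 ± 0.20 at 48 h and 0.70 ± 0.20 at 72 h. It was at 92.4, 105 and 103 FPKM at 0 h and 198, 203 and 108 at 72 h, with 72 h replicate 3 near the 0 h level. The 72 h call held in 16 of 19 settings and was lost without 72 h replicate 1 or 2 and with no filter on low values.

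**Figure D4:**
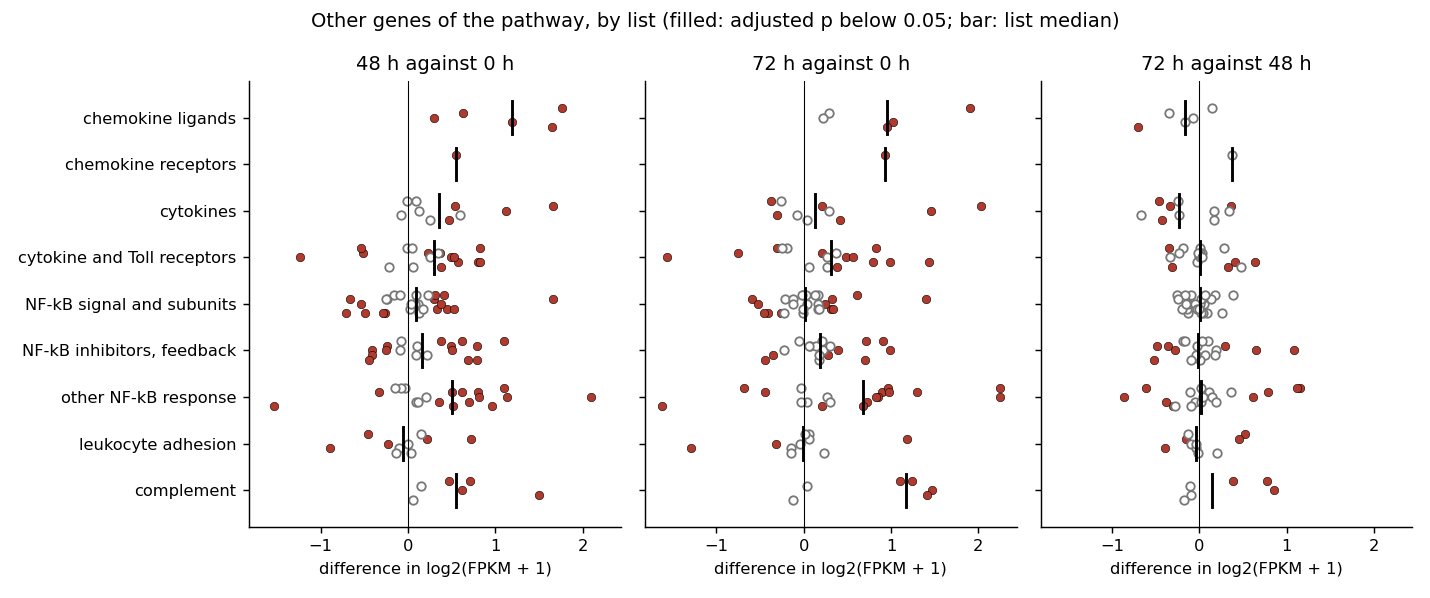
Difference in log2(FPKM + 1) of each of 113 other genes of the response (points), by list and comparison. Filled points passed the limma test at an adjusted p below 0.05, open ones did not, and the bar is the median of the list. Chemokine ligands and complement genes have no filled point below 0 at 48 h or 72 h against 0 h.

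Among 19 other genes known to respond to NF-kB 11 rose at each time, 2 fell at 48 h and 3 at 72 h, with medians of 0.51 and 0.68. Without 72 h replicate 2 the 72 h median was 0.42, and 1 rather than 2 genes fell at 48 h without 0 h replicate 2 or 3 or 48 h replicate 1 or 2 (4 at equal FPKM sums). CEBPD, a transcription factor of the acute phase response, was at 21.4 ± 6.25 FPKM at 0 h, 92.8 ± 7.09 at 48 h and 107 ± 34.3 at 72 h and rose in both comparisons (adjusted p = 4.88e-05 and 1.8e-05). LCN2, which binds bacterial iron carriers, rose at both steps, from 53.5 ± 3.53 to 116 ± 14.2 and 259 ± 39.5 FPKM (1.10 ± 0.11 at 48 h and 2.25 ± 0.11 at 72 h over 0 h). PTGS2, the cyclooxygenase that makes prostaglandins, was unlike CCL2 in its timing, with 19.9 ± 1.11 FPKM at 0 h, 17.9 ± 2.38 at 48 h and 40.3 ± 6.76 at 72 h (1.12 ± 0.12 over 48 h, limma adjusted p = 1.3e-04). F3, tissue factor, which starts blood clotting, fell from 108 ± 2.54 to 36.9 ± 4.38 and 34.4 ± 2.06 FPKM, and GADD45B fell at 72 h by 0.69 on the log2 scale. GCH1, which makes a cofactor of nitric oxide synthase, fell by 0.34 at 48 h, a call lost in 5 settings, and by 0.44 at 72 h (limma adjusted p = 0.00808), a call kept in all 18 settings that gave it a value.

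Among 10 adhesion genes beside VCAM1 and ICAM1, 2 rose and 3 fell at 48 h and 1 rose and 2 fell at 72 h, with medians of -0.05 and -0.01. Only 1 fell at 48 h when any 0 h library or 48 h replicate 1 or 2 was left out, and at equal FPKM sums 1 rose and 5 fell. JAM2, a junctional adhesion molecule, rose from 2.88 ± 0.235 to 5.43 ± 0.560 and 7.82 ± 1.01 FPKM (0.73 ± 0.10 and 1.18 ± 0.10). MCAM fell by 0.90 and 1.29 on the log2 scale. CD44, a hyaluronan receptor, rose at 48 h by 0.22 ± 0.05, a call lost at equal FPKM sums and under 2 other scalings (0.04 to 0.24 over the settings tried). ALCAM was lower at 48 h than at 72 h (0.52 ± 0.16, limma adjusted p = 0.0321), a call lost in 6 settings.

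Of 21 matched complement genes beside C3, 6 passed the filter, and 4 of them rose at each time, with medians of 0.55 and 1.17. MASP1, a protease that starts the lectin pathway, was at 7.88, 7.39 and 7.78 FPKM at 0 h, 22.4, 24.0 and 24.5 at 48 h and 16.7, 33.1 and 19.4 at 72 h (limma adjusted p = 1.11e-04 and 1.22e-04). Its 72 h replicate 2 stood above the others, as in C3. CLU, clusterin, a chaperone that blocks the end of the cascade, rose from 533 ± 7.98 to 823 ± 91.9 and 1482 ± 36.7 FPKM. SERPING1, the C1 inhibitor, rose by 0.72 ± 0.09 and 1.10 ± 0.09, and CFI, the protease that inactivates C3b, by 1.24 ± 0.15 at 72 h. The 48 h call of CFI (0.47) was lost in 5 settings.

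The tested genes whose log2(FPKM + 1) followed AMCF-II most closely over the 9 libraries, the 10 genes left out, were its neighbour CXCL2 (Pearson r = 0.994), TAPBP, which loads peptides on MHC class I (0.993), and DDIT4, an inhibitor of mTORC1 (0.990). DDIT4 was at 56.0, 54.2 and 51.7 FPKM at 0 h, 160, 206 and 159 at 48 h and 133, 214 and 134 at 72 h, so that its 48 h and 72 h replicates 2 were also the highest. For CCL2 they were RGL1 (0.996), OBSL1 (0.996) and PEDS1 (0.994), whose levels at 48 h were 1.33 to 1.88 times those at 0 h. These coefficients are descriptions, since the 9 libraries form 3 groups and were the basis on which the genes were picked.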

How the data were processed

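Total RNA was depleted of ribosomal RNA before library preparation with a NEBNext Ultra kit, per the labels' protocols. Per the file headers, the deposited values are FPKM, computed by the authors, 1 value per gene and library. Without giving their roles, the submitters' processing notes list the build Sscrofa11.1 and the tools RSEM 1.2.28, HISAT2 2.1.0, DESeq2 and featureCounts 2.0.2. FPKM is relative within a library, and no source states whether strand was used. Symbols came from a table of gene IDs, coordinates from a RefSeq table of Sscrofa11.1.

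Values were taken as log2(FPKM + 1), and the 11063 genes that reached 1 FPKM in 3 or more libraries were fitted with limma 3.58.1 (R 4.3.3), all 9 libraries in 1 fit with group as the only term and a trend in the prior variance. Calls are two-sided, at 0.05 after Benjamini-Hochberg adjustment over all 11063 genes. The median SE was 0.0883, and with no read counts no counting interval was computed. P values measure the spread between these libraries. The fit was tested on simulated data.

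The 10 genes and the 9 lists were chosen with earlier results of these data known, and some list genes were already known to rise. All 10 genes are named. From each list and comparison the text names the 2 called genes with the largest difference and up to 2 called genes against the list's majority, the NF-kB subunits and inducers whatever their values, and the 3 genes most like AMCF-II and CCL2. IL6ST, IL6R, CXCR4, TNFAIP6, CCL11, CHI3L1, CXCL14, CCL5 and the chromosome neighbours were named after their values were seen. Alternatives changed the pseudocount, filter, scaling, groups fitted, library weights, variance trend and replicate block, and left out each library.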

Additional observations from a re-analysis of the deposited data

Results flagged for a closer look

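Some genes whose level differed between 48 h and 72 h by the limma test are given here. In that comparison 20 named list genes were called. LCN2 (1.15), PTGS2 (1.12), NFKBIZ (1.08), CLU (0.85), CFI (0.77) and CXCL8 (-0.70) had differences larger in size than that of ZFP36. ICAM1, NFKBIA and PTX3 were chosen with their values known, so their p-values are descriptions. ICAM1 was higher at 72 h by 0.40 on the log2 scale, while NFKBIA (-0.63) and PTX3 (-0.55) were lower, each in 3 of 3 libraries, with adjusted p from 7.92e-05 to 0.0101, 7.62e-06 to 0.00626 and 2.34e-04 to 0.00888 over the settings tried. ZFP36, a regulator of cytokine messenger RNA and the only named gene called in opposite directions at 48 h and 72 h, was higher at 72 h than at 48 h by 0.65 (adjusted p = 5.38e-04). Its fall at 48 h (-0.25) was lost in 6 settings.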

How the results depend on the processing

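The differences of the 9 genes kept their sign in every setting and comparison, except that of TNFAIP3 from 48 h to 72 h, which was -0.0285 without 72 h replicate 2 and ran up to 0.33 as single libraries were left out. The calls of ICAM1, NFKBIA and PTX3 from 48 h to 72 h held in every setting. Of 99 calls of named list genes 85 held in every setting. Genes called higher at 48 h over 0 h numbered 1959 at equal FPKM sums, against 3048, and those lower 3823 with library weights, against 2476. The scaling to equal FPKM sums shifted the median gene by -0.13 at 48 h. From 48 h to 72 h, 1014 genes were called higher. That count was 2408 with library weights, 634 in a fit of the 2 groups alone and 589 to 1497 with single libraries left out. The 1800 called lower became 1127 at equal FPKM sums, 1164 at equal sums over protein-coding genes, 3348 with library weights and 1138 to 2196 with single libraries left out. The 16 list genes called lower from 48 h to 72 h became 29 with library weights and 8 to 21 with single libraries left out, 8 without 72 h replicate 1, 10 without 48 h replicate 2 or 72 h replicate 3. The cause was not tested. CXCL12 had no value in these fits.

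The deviations of same-numbered libraries had correlations of -0.07 to 0.19, with 2 of 9 above 0.1, against -0.18 to 0.17 for other pairs. The best partner shared the number in 8 of 18 cases. Correlations this weak cannot show whether same-numbered libraries were paired. With the replicate block 3081 genes were called higher and 2551 lower at 48 h, 2602 and 2550 at 72 h, and 1094 and 1937 from 48 h to 72 h. List genes numbered 52 and 20, 46 and 18, and 19 and 18. C3 from 48 h to 72 h was called with the block (1.03, adjusted p = 0.0413). Depth is unknown, so values below 1 FPKM rest on an unknown, likely small number of reads.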
